A study of Mus musculus with 59 samples.

Results

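The genes described here are 10 T cell and cytotoxic lymphocyte genes, read in primary mammary tumors of mice given methylparaben, propylparaben or vehicle. They were taken by symbol from the gene table (10 of 55421 genes) and from the intron table (10 of 33282 genes). Each symbol matched 1 row in each table: Cd3d, Cd3e, Cd3g and Cd247 for the T cell receptor complex, Cd4 and Cd8a for the coreceptors, Gzma, Nkg7 and Prf1 for the killing machinery, and Foxp3 for regulatory T cells. RNA was sequenced from 59 flash-frozen tumors: 20 from the methylparaben group, 20 from the propylparaben group and 19 from the vehicle group. All mice were B6.FVB-Tg(MMTV-PyVT)634Mul/LellJ animals carrying PyMT (+/-), so the animals given vehicle carried the oncogene as well. The transgene expresses the polyoma virus middle T oncogene from the long terminal repeat of mouse mammary tumor virus, a promoter active in the mammary epithelium, and the mouse keeps its own immune system. Methylparaben and propylparaben are the methyl and propyl esters of para-hydroxybenzoic acid, used as preservatives. The labels give neither dose, time, age nor sex, and they do not link tumors to animals. A p-value here thus reflects only how far these 59 tumor samples scatter.

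A T cell recognizes antigen through a receptor whose alpha and beta chains bind the antigen, while the CD3 chains and the zeta chain (encoded by Cd247) carry the signal into the cell. CD4 and CD8 are coreceptors that hold the receptor on MHC class II and class I molecules and mark helper and cytotoxic T cells. Cytotoxic T cells and natural killer (NK) cells kill by releasing perforin, which opens membranes, and granzymes, which are proteases that enter the target cell. FOXP3 is the transcription factor that defines regulatory T cells, which hold other T cells back. In mouse mammary tumors driven by the middle T oncogene, infiltrating immune cells are known to include many macrophages and fewer lymphocytes.

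The 10 genes were read very thinly. They held 1775 of the 94118400 reads on genes, or 0.00189 %, and a tumor had between 7 and 88 reads on all 10 together (median 28). Between 1166502 and 2032789 reads fell on genes in a library (mean 1595230 ± 207829, SD), so 1 read stood for 0.323 to 0.664 of the deposited normalized count, and a gene without a read could still lie anywhere below 3 reads, or 0.969 to 1.99 units depending on the library. These limits cover counting error only, since the reads carry no molecular identifiers described in the labels. A gene was called too low to read where its mean over the 59 tumors was under 1 or where over 50 % of the libraries held fewer than 3 reads of it. By this rule 8 of the 10 were too low: Cd3d, Cd3e, Cd3g, Cd247, Cd4, Cd8a, Prf1 and Foxp3. The other 2, Gzma and Nkg7, were readable. Of the 8, Cd3d, Cd247 and Cd8a had a mean of at least 1 and were still tested, while Cd3e, Cd3g, Cd4, Prf1 and Foxp3 fell below the filter.

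**Figure D1:**
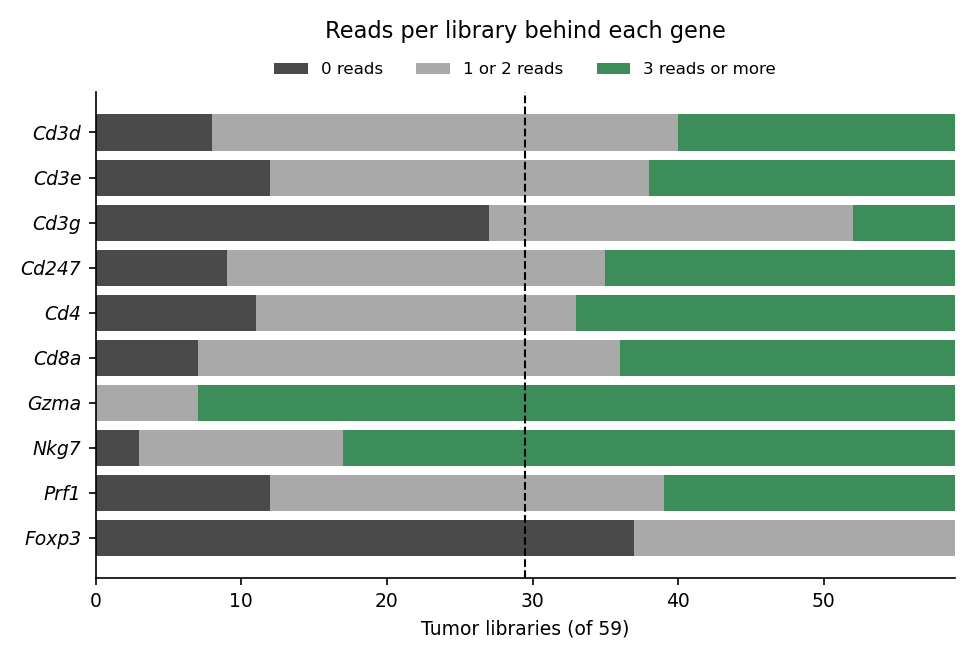
Number of tumor libraries, of 59, with 0 reads (dark grey), 1 or 2 reads (light grey) and 3 reads or more (green) of each gene; the dashed line marks 50 % of the libraries. Gzma and Nkg7 had at least 3 reads in 52 and 42 libraries, whereas Foxp3 reached 3 reads in 0 libraries.

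Gzma and Nkg7 carry the readable signal, and with Prf1 they make up the cytotoxic part of the set. Their start sites are shown by the sequence just upstream, which is given to let the 3 be compared. The stretches come from RefSeq promoters on GRCm38.p6, which covered 9 of the 10 genes, and each is 5′ to 3′ on the gene's strand and ends where the GENCODE M21 gene begins. Capitals mark TGTGGT or its reverse complement ACCACA, the core letters bound by RUNX transcription factors, which are regulators of T and NK cell genes.
Gzma, chr13:113100982-113101231, minus strand: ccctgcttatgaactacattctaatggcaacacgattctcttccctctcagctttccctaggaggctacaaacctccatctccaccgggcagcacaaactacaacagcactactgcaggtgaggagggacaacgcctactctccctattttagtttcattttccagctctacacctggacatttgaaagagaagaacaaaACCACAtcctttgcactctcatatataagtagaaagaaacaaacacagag
Nkg7, chr7:43436888-43437072, plus strand: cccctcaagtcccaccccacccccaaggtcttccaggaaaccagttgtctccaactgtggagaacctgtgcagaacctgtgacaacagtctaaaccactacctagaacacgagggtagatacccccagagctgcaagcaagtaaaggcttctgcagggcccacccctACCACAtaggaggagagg
Prf1, chr10:61297586-61297832, plus strand: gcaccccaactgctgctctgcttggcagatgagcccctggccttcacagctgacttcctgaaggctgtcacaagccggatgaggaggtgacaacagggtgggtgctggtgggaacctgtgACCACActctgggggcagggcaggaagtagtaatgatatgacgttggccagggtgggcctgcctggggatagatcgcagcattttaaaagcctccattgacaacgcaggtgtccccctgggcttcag
The 6 letters lay 50 bases before the RefSeq start of Gzma, 83 bases before that of Nkg7 and 130 bases before that of Prf1, each time as ACCACA. In the full windows of 250 bases, these were the 3 members that held the letters among the 9 with a RefSeq promoter, and 14 % of 32851 mouse promoter windows of the same length held them on either strand. The T-box letters GGTGTGA or their reverse complement are bound by T-bet and Eomes. They occurred in 1 of the 9, Nkg7, at 13 bases before the RefSeq start, and in 3.33 % of all windows. That place lies inside the GENCODE gene, which covers the last 65 bases of the Nkg7 window, and so outside the stretch printed above. The ETS core GGAA or TTCC was in all 9 but also in 93.4 % of all windows. Of 3 further patterns searched on either strand, CANNTG (N for any base) was in all 9 and in 66.2 % of all windows. Foxp3 had 2 RefSeq windows, both with all 250 bases inside the GENCODE gene. AGATAA was found in Cd3g and in window 2 of Foxp3, and in 9.99 % of all windows. TATAAA was found in window 1 of Foxp3 and in 12.4 % of all windows. A match of letters is not a measured binding site.

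Gzma, which encodes granzyme A, was the most abundant of the 10 genes (chr13:113093825-113100981, GRCm38, minus strand). In normalized counts, it ranged from 0.484 to 9.94 with a median of 2.94 in methylparaben tumors. In propylparaben tumors the lowest, median and highest values were 0.979, 3.34 and 22.9, and in vehicle tumors 0.385, 2.79 and 7.79. The groups overlapped over nearly their whole range, and 1 tumor, propylparaben replicate 12, stood far above all others with 71 reads. Means were 3.26 ± 2.42 (SD, n = 20) in methylparaben, 4.48 ± 4.63 (n = 20) in propylparaben and 3.11 ± 1.86 (n = 19) in vehicle tumors. On the scale of log2(value + 1), the difference was 0.03 (95 % interval -0.44 to 0.49, adjusted p = 0.968) for methylparaben minus vehicle and 0.32 (-0.15 to 0.79, adjusted p = 0.466) for propylparaben minus vehicle, by limma with Benjamini-Hochberg adjustment over all 14487 genes tested. Leaving out propylparaben replicate 12 brought the second of these to 0.20. Without the 7 libraries at the low end of principal component 1 (6 of them vehicle), the Gzma differences were -0.17 and 0.13.

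Nkg7 encodes a granule membrane protein of cytotoxic T and NK cells that takes part in degranulation (chr7:43437073-43438249). Its lowest, median and highest values were 0, 2.31 and 5.17 in methylparaben tumors, 0, 1.96 and 3.92 in propylparaben tumors and 0, 1.36 and 5.14 in vehicle tumors. The 3 ranges covered one another, and each group had 1 tumor with no read. The mean was 2.19 ± 1.26 in methylparaben, 2.03 ± 1.04 in propylparaben and 1.67 ± 1.32 in vehicle tumors (SD, n = 20, 20 and 19). Differences on the log2(value + 1) scale were 0.29 (95 % interval -0.11 to 0.70, adjusted p = 0.395) for methylparaben minus vehicle and 0.24 (-0.16 to 0.65, adjusted p = 0.531) for propylparaben minus vehicle in the same limma fit. Without the 7 libraries at the low end of principal component 1 (6 of them vehicle), the Nkg7 differences shrank to 0.040 and 0.014. Its intron reads, 42 in all, gave 0.53 (adjusted p = 0.480) for methylparaben minus vehicle and 0.08 (adjusted p = 0.945) for propylparaben minus vehicle by limma.

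Prf1 encodes perforin (chr10:61297833-61304680) and had 126 reads in the 59 tumors, too few for the filter. Methylparaben tumors held between 0 and 3.02 with a median of 0.956 and a mean of 1.13 ± 0.789 (SD, n = 20), from 54 reads. Propylparaben tumors held between 0 and 2.54 with a median of 0.894 and a mean of 1.03 ± 0.740 (n = 20), from 48 reads. Vehicle tumors held between 0 and 2.02 with a median of 0.389 and a mean of 0.512 ± 0.617 (n = 19), from 24 reads. The ranges overlapped, but 18 of 20 methylparaben and 16 of 20 propylparaben tumors lay above the vehicle median, which itself was worth 1 read. Prf1 was tested only in fits without a filter. On the log2(value + 1) scale, limma gave 0.49 (SE 0.17, unadjusted p = 0.00582, adjusted p = 0.171) for methylparaben minus vehicle. For propylparaben minus vehicle it gave 0.42 (SE 0.17, unadjusted p = 0.0163, adjusted p = 0.308). On the recovered reads the quasi-likelihood test of edgeR gave log2 fold changes of 1.06 and 0.92 for the same comparisons. Its unadjusted p was 0.0116 and 0.0296 and its adjusted p 0.178 and 0.340, so Prf1 did not pass.

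**Figure D2:**
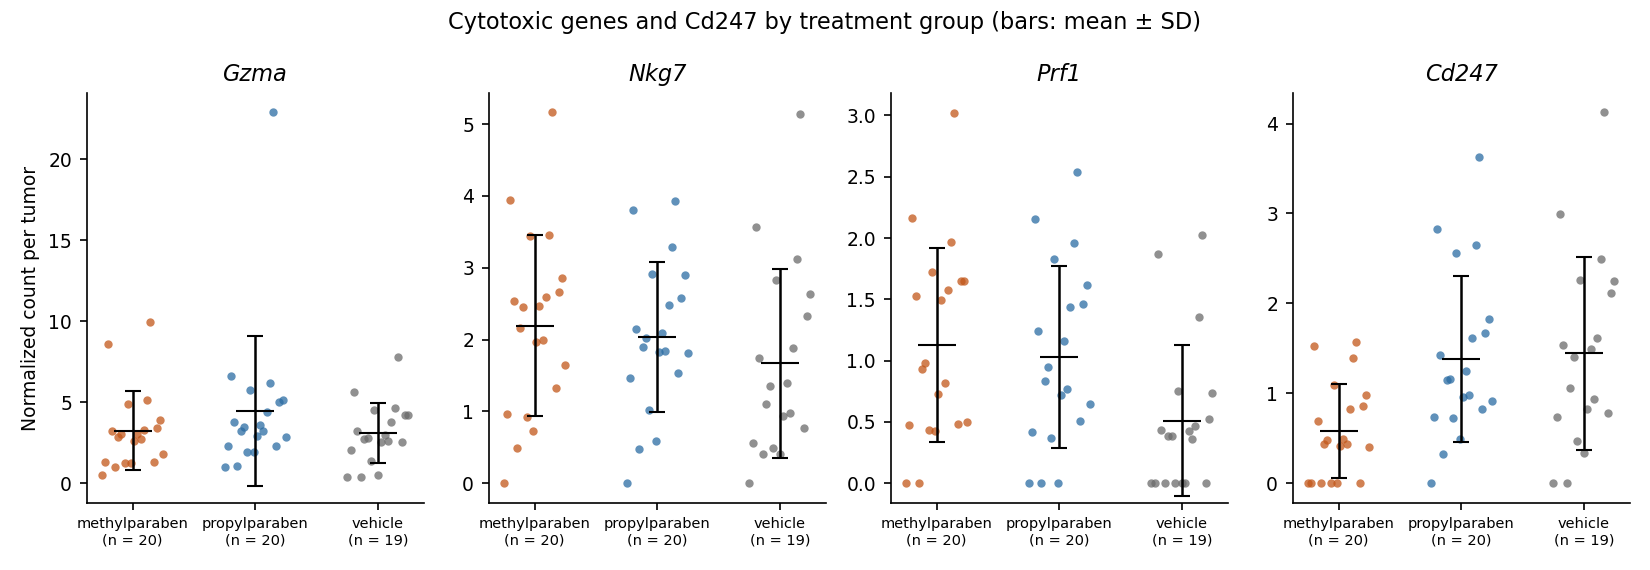
Normalized count (linear axis) of Gzma, Nkg7, Prf1 and Cd247 in each tumor, 1 point per tumor, by group; black bars are mean ± SD. Group ranges overlap for all 4 genes; propylparaben replicate 12 is alone at 22.9 for Gzma, and methylparaben tumors sit low for Cd247, with a highest value of 1.57.

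The 3 CD3 chains pair with the T cell receptor and are the general mark of T cells. Cd3d (chr9:44981786-44987339) and Cd3g (chr9:44969572-44980431) are transcribed away from each other with 1354 bases between them, and Cd3e lies nearby (chr9:44998740-45009627). Cd3d had 157 reads, with 0, 0.910 and 4.95 as the lowest, median and highest value in methylparaben tumors, 0, 0.762 and 3.62 in propylparaben tumors and 0, 0.847 and 3.43 in vehicle tumors. No group stood apart: the limma difference was 0.01 (95 % interval -0.38 to 0.40, adjusted p = 0.985) for methylparaben minus vehicle and -0.12 (-0.51 to 0.27, adjusted p = 0.777) for propylparaben minus vehicle. Cd3e had 130 reads and group means of 1.17 ± 0.944 in methylparaben, 0.816 ± 0.876 in propylparaben and 0.822 ± 0.579 in vehicle tumors (SD). Cd3g had 60 reads, and 27 of the 59 libraries had none of them.

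Per tumor, the 3 chains together held 0 to 24 reads. The summed value ranged from 0.464 to 9.14 (median 2.57) in methylparaben tumors, from 0 to 7.25 (median 1.72) in propylparaben tumors and from 0.437 to 5.14 (median 1.93) in vehicle tumors. The 2 highest sums belonged to methylparaben replicate 15, with 24 reads, and propylparaben replicate 17, with 20 reads. Those tumors also held 48 and 119 reads of Cr2, the complement receptor of B cells and follicular dendritic cells, against at most 3 reads in any other library. The B cell marker Ms4a1 was at 22.1 and 39.1 in the same 2 tumors. The summed level of 12 B cell genes reached 82.3 in methylparaben and 167 in propylparaben, with group medians of 6.495 and 5.84, and its highest value in vehicle was 11.7, with a median of 5.80. Without the 3 libraries with at least 3 reads of Cr2 (these 2 and vehicle replicate 3), the Cd3d difference for methylparaben minus vehicle was -0.098 (adjusted p = 0.798 by limma) and so changed sign. In whole-tumor RNA, fewer T cells and less RNA per T cell cannot be told apart.

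Cd247 encodes the zeta chain, the main signaling chain of the T cell receptor, which NK cells use as well (chr1:165788681-165877277). It had the smallest p of the members, and the value came from few reads: 28 in methylparaben, 66 in propylparaben and 65 in vehicle tumors. Its lowest, median and highest values were 0, 0.458 and 1.57 in methylparaben tumors, 0, 1.16 and 3.62 in propylparaben tumors and 0, 1.40 and 4.13 in vehicle tumors. Of the 20 methylparaben tumors, 18 lay below the vehicle median, although the ranges overlapped. Group means were 0.580 ± 0.526 in methylparaben, 1.39 ± 0.921 in propylparaben and 1.44 ± 1.07 in vehicle tumors (SD, n = 20, 20 and 19). The difference for methylparaben minus vehicle was -0.57 (95 % interval -0.93 to -0.21) with an unadjusted p of 0.00239 and an adjusted p of 0.0685 by limma, so it did not pass. It also missed the threshold with edgeR (log2 fold change -1.18, adjusted p = 0.0593) and passed with DESeq2 (log2 fold change -1.25, adjusted p = 0.0488). By limma it passed without the 3 libraries with Cr2 reads (adjusted p = 0.0482), without vehicle replicate 9 (0.0468) and without vehicle replicate 11 (0.0473), and over all alternatives its adjusted p ran from 0.0468 to 0.825. The highest came without the 7 libraries at the low end of principal component 1. In that fit the Cd247 difference was -0.63, and 0 genes of the whole table were called.

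Between the esters, which differ in the length of the alkyl chain, Cd247 was 0.57 higher in propylparaben than in methylparaben tumors on the log2(value + 1) scale (95 % interval 0.22 to 0.93), with an unadjusted p of 0.00211 and an adjusted p of 1.00 by limma. For propylparaben minus vehicle the same fit gave -9.2e-05 (95 % interval -0.36 to 0.36, adjusted p = 1.00). Both comparisons of methylparaben use the same 20 methylparaben tumors.

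The exons of Cd247 share 3007 of 5329 bases (56.4 %) with exons of Pou2f1 on the opposite strand, and the strand setting of the counting is not given in the sources used here. Reads in the shared bases may therefore have been left out as ambiguous or not told apart, and the Cd247 values are uncertain to that extent. Pou2f1, which encodes a widely expressed octamer-binding factor, averaged 30.5 normalized counts and differed by -0.02 (adjusted p = 0.895) for methylparaben minus vehicle by limma. Its level did not follow that of Cd247 exons (r = -0.11 over 59 tumors). Cd247 had many more reads in introns, 454, than in exons, 159, and both followed each other across tumors (r = 0.70, n = 59, libraries shared). Intron values of Cd247 averaged 11.9 ± 9.31 in methylparaben, 17.5 ± 10.8 in propylparaben and 13.6 ± 7.87 in vehicle tumors (SD). The intron difference by limma was -0.14 (95 % interval -0.71 to 0.43, adjusted p = 0.885) for methylparaben minus vehicle, 0.41 (-0.16 to 0.98, adjusted p = 0.580) for propylparaben minus vehicle and 0.55 (-0.02 to 1.11, adjusted p = 1.00) between the esters. Cd247 introns correlated with the mean of the 3 CD3 chains at r = 0.40 and Cd247 exons at r = 0.25, as descriptions over the same 59 tumors.

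**Figure D3:**
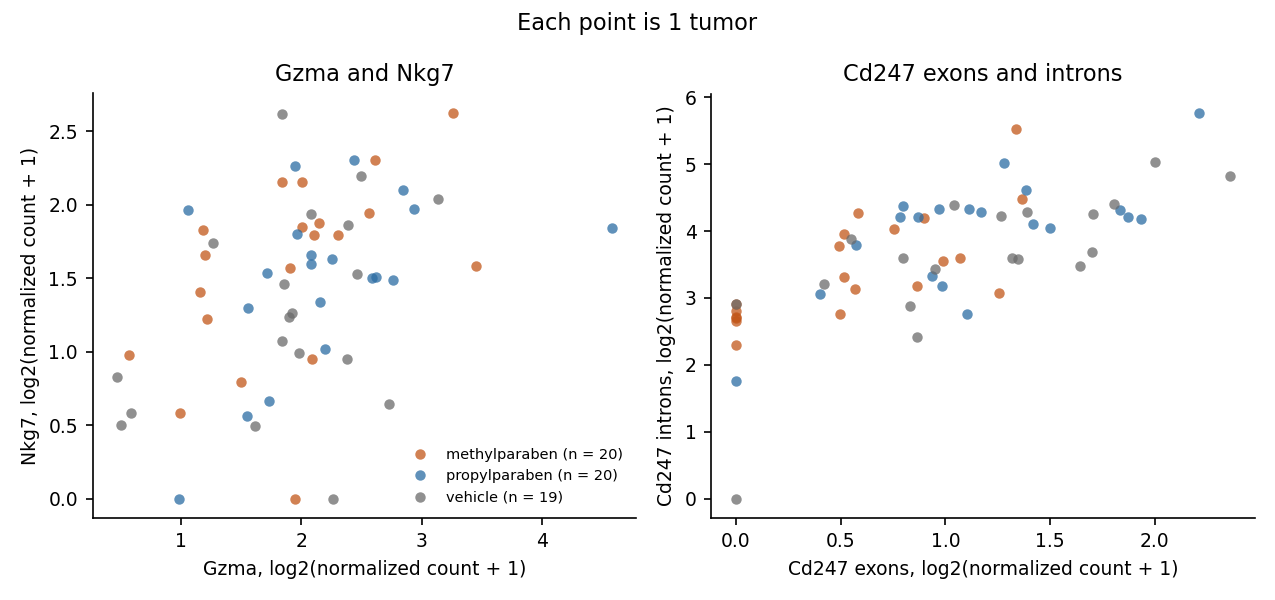
Left, Nkg7 against Gzma; right, introns against exons of Cd247; both axes are log2(normalized count + 1) and each point is 1 of 59 tumors, colored by group. Both panels slope upward (r = 0.43 and 0.70), with the 3 groups intermingled on the left and the methylparaben tumors toward low exon values on the right, and the tumors with no exon read of Cd247 also lie low for its introns.

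The coreceptors were at similar, low levels. Cd8a, the alpha chain of the coreceptor of cytotoxic T cells (chr6:71373427-71379173), had 170 reads. Its lowest, median and highest values were 0, 0.910 and 3.44 in methylparaben, 0, 1.19 and 5.80 in propylparaben and 0, 0.714 and 4.71 in vehicle tumors, and the highest of all was again propylparaben replicate 17, with 16 reads. Group means of Cd8a were 1.14 ± 0.947 in methylparaben, 1.36 ± 1.33 in propylparaben and 1.11 ± 1.16 in vehicle tumors (SD), and its limma differences were 0.05 (95 % interval -0.36 to 0.47, adjusted p = 0.917) for methylparaben minus vehicle and 0.14 (-0.28 to 0.56, adjusted p = 0.750) for propylparaben minus vehicle. Cd4, the coreceptor of helper T cells (chr6:124864692-124888221), had 141 reads, with means of 0.990 ± 0.756 in methylparaben, 1.15 ± 0.886 in propylparaben and 0.821 ± 0.809 in vehicle tumors (SD). Its differences in the limma fit without a filter were 0.17 (adjusted p = 0.672) for methylparaben minus vehicle and 0.28 (adjusted p = 0.593) for propylparaben minus vehicle.

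Foxp3 (chrX:7573644-7595245) could not be read. All tumors together gave 27 reads, 8 in methylparaben, 12 in propylparaben and 7 in vehicle tumors, and 37 of the 59 libraries had none. No library held more than 2 reads, and the variance of its read number over tumors was 0.928 times the mean. Its exons share 853 bases (18.6 %) with Flicr on the same strand, which averaged 0.0844 normalized counts. They also share 590 bases with Ccdc22 on the opposite strand, which averaged 10.2. Reads in shared bases may have been left out as ambiguous or not told apart. The same ratio of variance to mean was 10.4 for Gzma and lay between 1.57 and 2.89 for the other 8 genes. For Gzma it leans on 1 tumor, propylparaben replicate 12, with 71 of the 525 reads, where the next highest tumor had 25. The ratio without that tumor was not computed.

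Per length of exon sequence, Gzma stood at 3.60 ± 3.21 normalized counts per kilobase and Nkg7 at 2.15 ± 1.32 (SD over 59 tumors). Below them came Cd3d at 0.609 ± 0.545, Prf1 at 0.347 ± 0.293, Cd8a at 0.331 ± 0.313, Cd4 at 0.246 ± 0.202 and Cd3e at 0.230 ± 0.201. Cd247, at 0.212 ± 0.176, Cd3g, at 0.131 ± 0.156, and Foxp3, at 0.0442 ± 0.0646, were the lowest per kilobase. Nkg7 was above Cd3d in 51 of 59 tumors and Gzma above Nkg7 in 45, while Prf1 was above Cd8a in only 27 of 59 and Cd3e above Cd247 in 31. Of the 9 gaps between neighbors in this order, only that between Nkg7 and Cd3d was larger than the SD of both neighbors. That SD does not use that all genes were read in the same tumors. The gap between Nkg7 and Cd3d depended on the division by length. Nkg7 and Gzma have the shortest exon sequence of the 10, 914 and 1006 bases, against 1815 for Cd3d. Undivided, Nkg7 averaged 1.967 ± 1.211 and Cd3d 1.106 ± 0.989 (SD over 59 tumors), a gap smaller than either SD. The division counts all annotated exon bases and takes reads as evenly spread over them, which was not tested. Within tumors, Cd3d was above Prf1 in 40 and below it in 19. Cd4 was above Cd3e in 37 and below it in 17, and Cd247 above Cd3g in 37 and below it in 16. Cd3g was above Foxp3 in 29 and below it in 12, and Cd8a above Cd4 in 32 and below it in 25. The order within tumors was not tested. The levels of Cd247 and Foxp3 per kilobase are further uncertain because of the exon bases they share with other genes.

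Over the whole table, 0 of the 5 tested members passed the limma test in any of the 3 comparisons. For methylparaben against vehicle this was 0 of 5, where 1.32 % of 14487 genes passed. For propylparaben against vehicle 0 of 5 passed, where 0.0276 % of genes did, and between the esters 0 of 5 passed, where 0 % of genes did. At an unadjusted p under 0.05, the members counted 1, 0 and 1 of 5 in these 3 comparisons, Cd247 both times. Of all genes, 22.1 %, 18.4 % and 2.15 % did so. Prf1, below the filter and so not among the 5, had an unadjusted p under 0.05 against vehicle for both esters in the limma fit without a filter. edgeR called 0 of 5 in each comparison, where it called 3.86 %, 0.145 % and 0.145 % of genes. DESeq2 called Cd247 alone for methylparaben against vehicle, where it called 4.42 % of genes, and 0 members in the other comparisons, where it called 1.57 % and 0 % of genes. For propylparaben against vehicle DESeq2 gave no adjusted p for 4 of the 5 members, all but Gzma. In introns, 0 of the 3 members with a mean of at least 1 (Cd247, Nkg7 and Cd3e) passed in any comparison, and 0 % of 14281 introns did. The median difference of the 5 members was 0.03 for methylparaben minus vehicle and 0.14 for propylparaben minus vehicle, beside 0.01 and -0.00051 over all genes. With the 7 libraries at the low end of principal component 1 left out (6 of them vehicle), 0 genes and 0 members were called against vehicle for either ester.

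**Figure D4:**
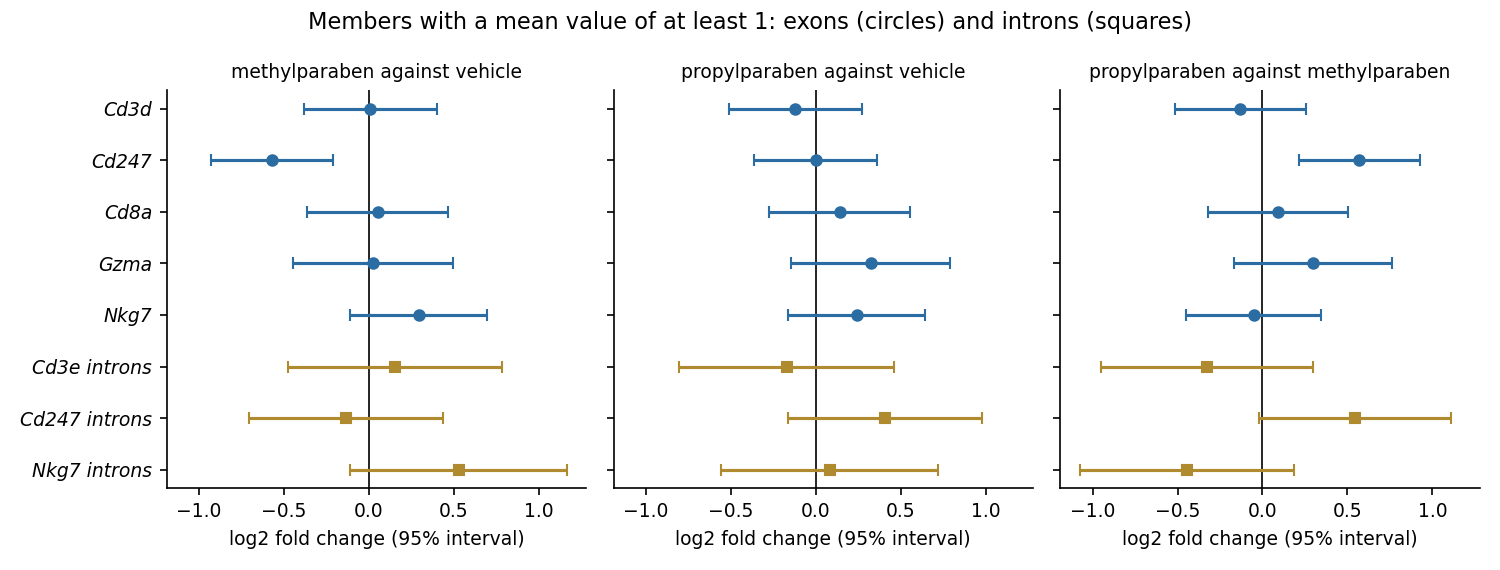
Difference between groups on the log2(value + 1) scale for the 5 members tested in exons (circles) and the 3 tested in introns (squares), with 95 % intervals from limma, 1 panel per comparison. All intervals include 0 except those of Cd247 exons for methylparaben against vehicle (-0.57) and propylparaben against methylparaben (0.57), neither of which passed after adjustment.

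Further genes of T and NK cells were read in 4 lists. Of 20 genes of the T cell receptor and its signaling, 10 had a mean of at least 1, and 0 passed in any comparison. The smallest p for methylparaben against vehicle was that of Trbc2, a constant segment of the T cell receptor beta chain, at 9.11 ± 3.34 in methylparaben and 6.76 ± 3.31 in vehicle tumors (SD; log2 0.43, adjusted p = 0.172 by limma). The next was Thy1, a surface protein of T cells and fibroblasts (log2 0.37, adjusted p = 0.269). For propylparaben against vehicle Trbc1, the other beta constant segment, and Thy1 came first (log2 0.37 and 0.35, adjusted p = 0.311 and 0.344), and between the esters Lcp2, an adaptor of receptor signaling, and Trbc2 (log2 0.20 and -0.27, adjusted p = 1.00 each). Trbc1 and Trbc2 are near-identical copies, so the values of both are uncertain.

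Among 18 further cytotoxic and NK cell genes, 10 were tested and 0 passed. Il2rb, the interleukin 2 receptor beta chain, averaged 10.05 ± 3.99 in methylparaben, 10.1 ± 5.59 in propylparaben and 7.005 ± 5.11 in vehicle tumors (SD). Its limma differences were 0.69 (adjusted p = 0.123) for methylparaben minus vehicle and 0.59 (adjusted p = 0.226) for propylparaben minus vehicle. Tbx21, which encodes T-bet, had 0.41 (adjusted p = 0.173) and 0.40 (adjusted p = 0.238) in the same comparisons. Between the esters the smallest p values belonged to Klrd1 and Klrb1c, receptors of NK cells (log2 0.20 and -0.14, adjusted p = 1.00 each). The list median was 0.11 for methylparaben minus vehicle and 0.14 for propylparaben minus vehicle, and that of the T cell receptor list was 0.24 and 0.22, beside 0.01 and -0.00051 over all genes.

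Of 14 regulatory, checkpoint and activation genes 8 were tested and 0 passed. Ccr8, a chemokine receptor of regulatory T cells named here after its values were seen, had 0 reads in all 59 libraries. Il2ra, the interleukin 2 receptor alpha chain of regulatory and activated T cells, had log2 differences of 0.52 (adjusted p = 0.120) for methylparaben minus vehicle and 0.48 (adjusted p = 0.192) for propylparaben minus vehicle. Ikzf2, which encodes Helios, gave 0.30 (adjusted p = 0.150) for methylparaben minus vehicle. Havcr2, which encodes the checkpoint receptor TIM-3, gave 0.37 (adjusted p = 0.230) for propylparaben minus vehicle and 0.33 (adjusted p = 1.00) between the esters, where Tnfrsf18 (GITR) followed with -0.07 (adjusted p = 1.00). The median of this list was 0.08 for methylparaben minus vehicle and 0.17 for propylparaben minus vehicle.

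In the list of 12 naive and memory T cell genes, 11 were tested and 1 rose for methylparaben against vehicle. This was Cd44, a hyaluronan receptor of memory T cells that epithelial and stromal cells also carry, at 272 ± 39.99 in methylparaben and 222 ± 50.3 in vehicle tumors (SD; log2 0.32, adjusted p = 0.0456 by limma), in a comparison where 1.32 % of all genes passed. The call was lost with the 7 libraries at the low end of principal component 1 left out (log2 0.22, adjusted p = 0.843), without a filter (adjusted p = 0.0881), with only the 2 groups (adjusted p = 0.0707) and in 21 of the 59 limma fits that leave out 1 library, over which the adjusted p ran from 0.0123 to 0.0948. It held with edgeR (adjusted p = 0.0366), DESeq2 (0.0239), median-of-ratios scaling, both other pseudocounts and without the 3 libraries with Cr2 reads. In introns the Cd44 difference for methylparaben minus vehicle was 0.12 (adjusted p = 0.707 by limma). For propylparaben minus vehicle Cd44 was 0.31 in exons (adjusted p = 0.0692 by limma, 0.0693 by edgeR and 0.0353 by DESeq2). Klf2, a transcription factor of resting T cells and endothelium, gave 0.39 (adjusted p = 0.101) and 0.26 (adjusted p = 0.327) in these comparisons. Between the esters S1pr1 and Bcl11b came first, with log2 differences of -0.18 and -0.28 (adjusted p = 1.00 each). The list median was 0.13 for methylparaben minus vehicle and 0.15 for propylparaben minus vehicle.

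Markers of other cells in the tumor pieces were read at levels from below to far above those of the 10 genes. The 10 luminal epithelial genes, which mark the labelled tissue, were all read and summed to 1380 to 2203 in methylparaben, 1489 to 2496 in propylparaben and 1322 to 2291 in vehicle tumors. The 12 macrophage genes summed to 443 to 911 in methylparaben, 367 to 844 in propylparaben and 177 to 840 in vehicle tumors, against 3.43 to 28.4 over all tumors for the 10 T cell and cytotoxic genes. The 5 lymph node stroma genes matched to 1 row summed to a median of 14.7 in methylparaben, 15.1 in propylparaben and 8.26 in vehicle tumors, and the 10 T cell and cytotoxic genes to 11.6 in methylparaben, 12.9 in propylparaben and 9.50 in vehicle tumors. Fat cell genes were at a median of 670 in methylparaben, 282 in propylparaben and 195 in vehicle tumors (8 genes, 0 passed). In the macrophage, dendritic cell, B cell, plasma cell, lymph node stroma and luminal epithelial lists, 0 genes passed in any comparison. The median difference for methylparaben minus vehicle and for propylparaben minus vehicle was 0.58 and 0.78 in the plasma cell list (4 genes tested), 0.46 and 0.63 in the lymph node stroma list (3 genes tested), 0.21 and 0.22 in the macrophage list and 1.32 and 0.93 in the fat list. It was 0.11 and 0.24 in the B cell list, 0.18 and 0.16 in the dendritic cell list and 0.058 and 0.059 in the luminal epithelial list. The part of other cell types in the values of the 10 genes was not tested.

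How the members vary together could be read only in part, since Cd3d, Cd247 and Cd8a averaged under 3 reads per library and a weak correlation at that depth does not show that genes vary separately. Of 10 pairs among the 5 tested members, 2 correlated over the 59 tumors after adjustment for 10 pairs. Gzma and Nkg7 had r = 0.434 (permutation p = 0.00073, adjusted p = 0.00365, two-sided) and rho = 0.441 (permutation p = 0.00062, adjusted p = 0.0062). Without the 2 tumors farthest from the Gzma median, propylparaben replicate 12 and vehicle replicate 10, r was 0.431. Within groups it was 0.493 in methylparaben, 0.449 in propylparaben and 0.370 in vehicle tumors (permutation p = 0.0261, 0.0536 and 0.120, none passing after adjustment). Cd3d and Cd8a had r = 0.432 (permutation p = 0.00068, adjusted p = 0.00365) but rho = 0.268 (permutation p = 0.0408, adjusted p = 0.0827). Their r was 0.336 without methylparaben replicate 15 and propylparaben replicate 17 (permutation p = 0.0106, adjusted permutation p = 0.0528). Without those 2, neither of which is a vehicle tumor, the pair thus missed the threshold by a small margin. Within groups their r was 0.240 in methylparaben, 0.50 in propylparaben and 0.616 in vehicle tumors (permutation p = 0.310, 0.0241 and 0.00476), and only the vehicle value passed adjustment (adjusted permutation p = 0.0476). For Gzma with Cd3d, r was 0.0486 over all tumors, and -0.0608 in methylparaben, -0.143 in propylparaben and 0.464 in vehicle tumors (permutation p = 0.800, 0.544 and 0.0457). For Gzma with Cd8a, r was -0.0378 over all tumors, and 0.120 in methylparaben, -0.527 in propylparaben and 0.347 in vehicle tumors (permutation p = 0.614, 0.0180 and 0.146). None of these passed adjustment over the 10 pairs, and whether r differs between groups was not tested. The 4 pairs with Cd247 did not pass either. Correlations of the 10 genes with the number of reads on genes ran from -0.161 for Foxp3 to 0.294 for Nkg7.

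The genes whose level was most like the mean of Cd3d, Cd3e and Cd3g across tumors were looked up as well. Among 11044 genes with a mean of at least 5, the 10 highest Pearson r over 59 tumors were those of Igkc (0.624), Ighm (0.617), Trbc2 (0.602), Il7r (0.593), Ms4a4b (0.586), Jchain (0.563), Spn (0.550), Sla (0.543), Ptprc (0.534) and Dusp2 (0.532). Igkc, Ighm and Jchain encode immunoglobulin chains of B and plasma cells, Trbc2 a chain of the T cell receptor, Il7r the interleukin 7 receptor of lymphocytes, Spn the leukocyte surface protein CD43 and Ptprc the leukocyte antigen CD45. The order depends on a few tumors. Without the 3 libraries with Cr2 reads, r was 0.512 for Igkc, 0.511 for Sla, 0.474 for Ighm and 0.405 for Jchain, the lowest of the 10. Without the 2 tumors farthest from the median of the CD3 mean, Sla was highest at 0.512, with Igkc at 0.504, Ighm at 0.475 and Jchain again lowest at 0.398.

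The same search for the 2 readable genes, added after their values were seen, gave other partners. The 10 genes most like Nkg7 included H2-Eb1 (0.680), H2-Aa (0.658) and H2-Ab1 (0.635), which encode MHC class II chains, and Ciita (0.656), their main activator, and were led by Camk1d (0.683), a calcium-dependent kinase. The gene most like Gzma was Car6 (0.656), a secreted carbonic anhydrase with a mean of 152 normalized counts, followed by Cutal (0.600). Without the 2 tumors farthest from the Gzma median the r of Car6 was 0.564. All of these are descriptions over the same 59 libraries, picked as the highest of 11044.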

How the data were processed

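RNA from 59 tumors was measured by sequencing. Per the submitters' processing notes, bcl2fastq 2.20.0.422, STAR 2.6.1d, HTSeq 0.10.0 and GRCm38 were used; of the annotation, strand setting and intron definition nothing is stated in the labels. The authors deposited normalized counts for genes and introns, a signal scaled by library, with 5 summary lines left out here (reads outside features were 13.7 to 35.5 % of reads). Dividing each deposited gene value by the smallest value of its library gave whole numbers (100 % within 1e-06 reads), and the values equal TMM-scaled CPM, so reads were recovered. All columns were used.

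Values were tested as log2(value + 1) with limma 3.58.1 (trend, R 4.3.3), in 1 fit of 59 libraries with a mean per group, for rows averaging at least 1, as genes and as introns (14487 and 14281). Adjustment was by Benjamini-Hochberg over all of them, with a threshold of 0.05. A fold change on this scale understates the change of low genes. edgeR 4.0.16 and DESeq2 1.42.0 were run on recovered reads. Alternatives were pseudocounts of 0.5 and 10, no filter, median-of-ratios scaling, only the 2 groups compared, and each library left out; 2 sets of left-out libraries and edgeR without a filter were chosen after seeing the data. Correlations used 100000 permutations. The code was tested on simulated data.

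The members, lists and naming rule were chosen with earlier results of these data known. The rule named all 10 members, up to 2 genes with the smallest p per list and comparison, and the 10 genes most like the CD3 chains; in the lists of other cell types, where 0 genes passed, genes are given as counts. GENCODE M21 gave positions, exon lengths and overlaps. Libraries of 1 group differed by more than sampling noise (lowest chi-square per degree of freedom 1.97). No batch or date is in the labels.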

Additional observations from a re-analysis of the deposited data

How the results depend on the processing

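No paired analysis was possible because numbers within a group are only names and the labels link no tumors across groups. Of 1020 recomputed differences of the 5 tested members, 55 changed sign and 4 passed the threshold, all 4 for Cd247 in methylparaben against vehicle. The other 961 kept their direction and did not cross the threshold, but many of them could not change direction. Leaving out a library of the third group, using no filter or fitting only the 2 groups leaves the difference itself as it was. The 961 include DESeq2 differences for propylparaben against vehicle without an adjusted p (Cd3d, Cd247, Cd8a and Nkg7), which have no side of the threshold. Sign changes outside single left-out libraries concerned differences near 0. For methylparaben minus vehicle, Cd3d was -0.0011 with a pseudocount of 0.5, -0.098 without the libraries with Cr2 reads and -0.15 without the 7 libraries at the low end of principal component 1, where Cd8a was -0.11 and Gzma -0.17. Cd247 for propylparaben minus vehicle was 0.020 with a pseudocount of 0.5 and 0.0039 with median-of-ratios scaling. The number of members called for methylparaben against vehicle was 1 with DESeq2 and without the libraries with Cr2 reads. The cause was not tested.

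With single libraries left out, the difference ranged, for methylparaben minus vehicle, from -0.64 to -0.50 (Cd247), -0.074 to 0.074 (Cd3d), -0.010 to 0.14 (Cd8a) and -0.056 to 0.095 (Gzma). It ranged from -0.064 to 0.067 for Cd247 in propylparaben minus vehicle, and from -0.00039 to 0.15 (Cd8a) and -0.13 to 0.028 (Nkg7) between the esters. Members called in methylparaben against vehicle ranged from 0 to 1.

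The background counts moved far more. Genes called for methylparaben against vehicle, 191, were 25 without a filter, 2 with only the 2 groups, 559 with edgeR, 640 with DESeq2, 0 without the 7 libraries, and 1 (without vehicle replicate 8) to 932 (without vehicle replicate 5) with single libraries left out, 33 of which moved the count by over 1.5 times. For propylparaben against vehicle, 4, they were 2, 0, 21, 227 and 0 under the same settings, 9 without the libraries with Cr2 reads, and 1 to 424. Between the esters, 0, edgeR called 21 and single left-out libraries gave 0 to 1. Pairs of members that correlated, 2, were 1 by rho, 1 without the 2 farthest tumors, and 0, 0 and 1 within methylparaben, propylparaben and vehicle. At a mean of under 3 reads per library, depth limits what can be seen for the 8 members other than Gzma and Nkg7.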
